A study of Mus musculus with 25 samples.

Results

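The 8 genes described here are Retnla, Chil3, Mgl2, Clec10a, Egr2 and Tgm2, which are used as marks of alternative activation of mouse macrophages, and the lectin genes Cd209f and Cd209g. They were taken by symbol from a table of raw read counts for 13482 genes, and all 8 were present. The libraries are bulk polyA RNA of macrophages sorted from the lungs of mixed bone marrow chimeras, in which knockout and WT marrow were given to the same kind of host. The series asked what IL-9 signaling alters within interstitial macrophages (IM), using B16 tumors in the lung.

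There were 25 libraries in 12 groups. In the IL9R chimeras, B6/boyj hosts were given Il9r -/- and Boyj WT marrow, and the tumor groups were CD11c+ IM labelled Il9r KO (3 libraries) and WT (2) and CD11c- IM labelled Il9r KO (3) and WT (2). In the ARG1 chimeras, with cells labelled ARG1 CKO and WT, they were CD11c+ IM of CKO (2) and WT (3) and CD11c- IM of CKO (3) and WT (3). Each chimera kind also had 1 knockout and 1 WT library of naive total macrophages. The sources used here do not give the Cre driver of the CKO cells, the age of the mice or the number of animals behind a library. Separate animals are not stated, and each p-value therefore reflects the spread between these samples alone, which may be technical. The naive cells were sorted as total macrophages and the tumor cells as IM subsets, so tumor and sort cannot be told apart in any comparison with naive cells. All 25 libraries carry a B16 tumor in one label, and the treatment label marks 4 of them as naive.

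Alternative activation is the state that IL-4 and IL-13 induce in macrophages through the IL-4 receptor and the transcription factor STAT6. In mice its best known products are RELMα, a secreted resistin-like protein encoded by Retnla, and Ym1, a secreted chitinase-like protein encoded by Chil3. Mgl2 and Clec10a encode the galactose-type lectins MGL2 and MGL1 of macrophages and dendritic cells, Egr2 a zinc finger transcription factor and Tgm2 a protein-crosslinking transglutaminase. Ym1 is also made by resting alveolar macrophages, the cells of the airspace. Cd209f and Cd209g belong to the mouse family of genes related to human DC-SIGN, a C-type lectin that binds sugars on microbes.

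In mm10, with the GENCODE annotation, all 8 are protein-coding genes. Retnla spans chr16:48842551-48844461 (plus strand) and Chil3 chr3:106147554-106167564 (minus strand). Mgl2 (chr11:70130329-70137550) and its neighbour Clec10a (chr11:70156197-70170834) are both on the plus strand. Egr2 spans chr10:67535475-67542188 (plus strand), Tgm2 chr2:158116402-158146436 (minus strand), Cd209f chr8:4102787-4105835 (minus strand) and Cd209g chr8:4134098-4137707 (plus strand).

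Promoters of 4 of the genes are shown, since these genes are the pairs of secreted products and of Cd209 lectins that the results turn on. All were taken from RefSeq (GRCm38.p6), 250 bases before to 50 bases after the gene start that RefSeq lists. That start is the GENCODE start for Chil3 but not for Retnla, Cd209f and Cd209g, and the Cd209g window lies within the GENCODE span of the gene. For Cd209f (chr8:4105715-4106014, minus strand) and Cd209g (chr8:4134486-4134785, plus strand) the capitals mark the longest run of bases that both share, 180 bases.

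Cd209f: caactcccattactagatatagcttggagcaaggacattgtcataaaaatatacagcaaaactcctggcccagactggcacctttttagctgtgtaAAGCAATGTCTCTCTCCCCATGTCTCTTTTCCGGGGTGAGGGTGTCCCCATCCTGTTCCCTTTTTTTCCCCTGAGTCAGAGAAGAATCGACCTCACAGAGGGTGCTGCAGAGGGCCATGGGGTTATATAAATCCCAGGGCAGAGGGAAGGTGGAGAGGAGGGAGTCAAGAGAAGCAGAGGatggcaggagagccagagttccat
Cd209g: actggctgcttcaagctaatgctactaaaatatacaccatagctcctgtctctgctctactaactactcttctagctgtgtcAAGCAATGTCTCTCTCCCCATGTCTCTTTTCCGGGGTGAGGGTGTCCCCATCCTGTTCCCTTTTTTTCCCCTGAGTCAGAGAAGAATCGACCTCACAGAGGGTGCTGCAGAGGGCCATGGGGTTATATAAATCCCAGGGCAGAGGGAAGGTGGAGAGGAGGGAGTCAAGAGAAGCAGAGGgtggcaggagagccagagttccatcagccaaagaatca

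With the shared runs aligned, 238 of 286 bases were identical (83.2%). The shared run begins 154 bases before the listed start of Cd209f and 168 bases before that of Cd209g. The 2 genes lie 28262 bases apart on opposite strands of chromosome 8. Their transcripts are also alike: 38.2% of the 50-base words of Cd209f occur in Cd209g and 38.7% of those of Cd209g in Cd209f, so counting could have assigned some reads of one to the other or dropped them.

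For Retnla (chr16:48842359-48842658, plus strand) the capitals mark TTCACAAGAA, a match to the STAT6 motif (TTC, 4 bases of any kind and GAA), and TTGCTAAA, a match to the C/EBP motif TTGCNNAA. For Chil3 (chr3:106167515-106167814, minus strand) they mark TTCTTAGAA, a match to the motif TTCNNNGAA of STAT factors.

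Retnla: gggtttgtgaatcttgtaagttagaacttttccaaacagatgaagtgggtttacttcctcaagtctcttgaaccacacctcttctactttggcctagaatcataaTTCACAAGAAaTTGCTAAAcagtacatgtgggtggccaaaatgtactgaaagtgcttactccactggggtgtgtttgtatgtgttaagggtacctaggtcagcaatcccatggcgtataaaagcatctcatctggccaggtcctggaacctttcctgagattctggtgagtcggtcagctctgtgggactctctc
Chil3: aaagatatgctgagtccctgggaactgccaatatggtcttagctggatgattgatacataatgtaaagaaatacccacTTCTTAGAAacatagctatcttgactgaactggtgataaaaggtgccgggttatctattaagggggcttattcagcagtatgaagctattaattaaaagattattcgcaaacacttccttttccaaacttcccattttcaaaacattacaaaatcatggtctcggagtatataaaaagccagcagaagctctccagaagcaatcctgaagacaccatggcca

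Both strands were searched, and the matches in Retnla begin at -145 and -134 and the match in Chil3 at -172 from the start. Among 32851 promoters of the same length, 6.95% hold the STAT6 motif, 10.8% hold TTGCNNAA and 8.30% hold TTCNNNGAA. A match describes letters in this window and is not a shown binding site. RefSeq promoters were found for 6 of the 8 genes, all but Clec10a and Tgm2. None of these 3 motifs was found in the windows of Mgl2, Egr2, Cd209f or Cd209g, and the EGR motif GCGNGGGCG (5.55% of promoters) in none of the 6. Of more general motifs, TATAAA (13.6% of promoters) was found for Retnla, Chil3, Cd209f and Cd209g and CCAAT (37.4%) for Chil3, Mgl2 and Egr2.

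Before the results, the labels were set against the data. Library totals ran from 32308968 to 56904167 counts. Itgax, the gene of CD11c, was at 194 to 441 CPM (read counts scaled to a common library size with TMM factors) in WT CD11c+ and 11.4 to 33.4 CPM in WT CD11c- libraries. Arg1 was lower in CKO than in WT cells of each ARG1 population. It was at 483 to 567 against 1096 to 2912 CPM in CD11c+ IM and 1711 to 2789 against 3620 to 6229 CPM in CD11c- IM. These tumor IM differences did not pass the edgeR test given below. Arg1 was also lower in CD11c+ IM labelled Il9r KO (102 to 895 CPM) than in WT cells of that chimera (1060 to 1070 CPM). That difference did not pass either, and the CD11c- groups of that chimera overlapped. Il9r went against its label: all 7 libraries labelled Il9r KO held 83 to 562 Il9r reads and all 12 WT libraries held 0, so the genotype is given below as labelled. Of the 6 Arg1 CKO libraries, 3 also held Il9r reads (5 to 61), up to 1.89 CPM, against 1.79 CPM in the lowest library labelled Il9r KO. The labels do not say which part of the gene is deleted.

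One library stood apart in these genes, the CD11c- IM library labelled Il9r KO 3. It held 1666 CPM of Retnla, 353 CPM of Mgl2, 246 CPM of Cd209f and 87.9 CPM of Cd209g. The other CD11c- libraries with tumor reached at most 143, 42.0, 13.9 and 6.43 CPM of these. Its 9 markers of Lyve1+ interstitial macrophages other than Cd209f and Cd209g summed to 4983 CPM, against 2502 to 3669 CPM in the other CD11c- libraries of this chimera, and Lyve1 itself was at 252 CPM against 19.05 to 83.6 CPM. Scgb1a1, a gene of airway club cells, was at 97.2 CPM in this library and at most 22.65 CPM in the other CD11c- libraries. The part of these in the results was not tested. Values with and without this library are given for the calls, medians and ranks that it changes.

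Among the 8 genes, Chil3 had the highest level per kilobase of exon in 8 of 12 groups and Retnla in the other 4, namely both IL9R naive libraries, the WT naive library of the ARG1 chimeras and CD11c- IM labelled Il9r KO. The last of these rests on KO 3. Without it Chil3 was the highest of the 8 genes in that group, at 231 CPM per kilobase, ahead of Retnla at 162 CPM per kilobase. In naive WT macrophages Retnla was at 538 CPM per kilobase in the IL9R chimera and 790 CPM per kilobase in the ARG1 chimera. Cd209g was the lowest in each of the 12 groups. In WT CD11c+ IM, Cd209f was seen in 2 of 5 libraries (10 reads and 1 read) and Cd209g in none.

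**Figure D1:**
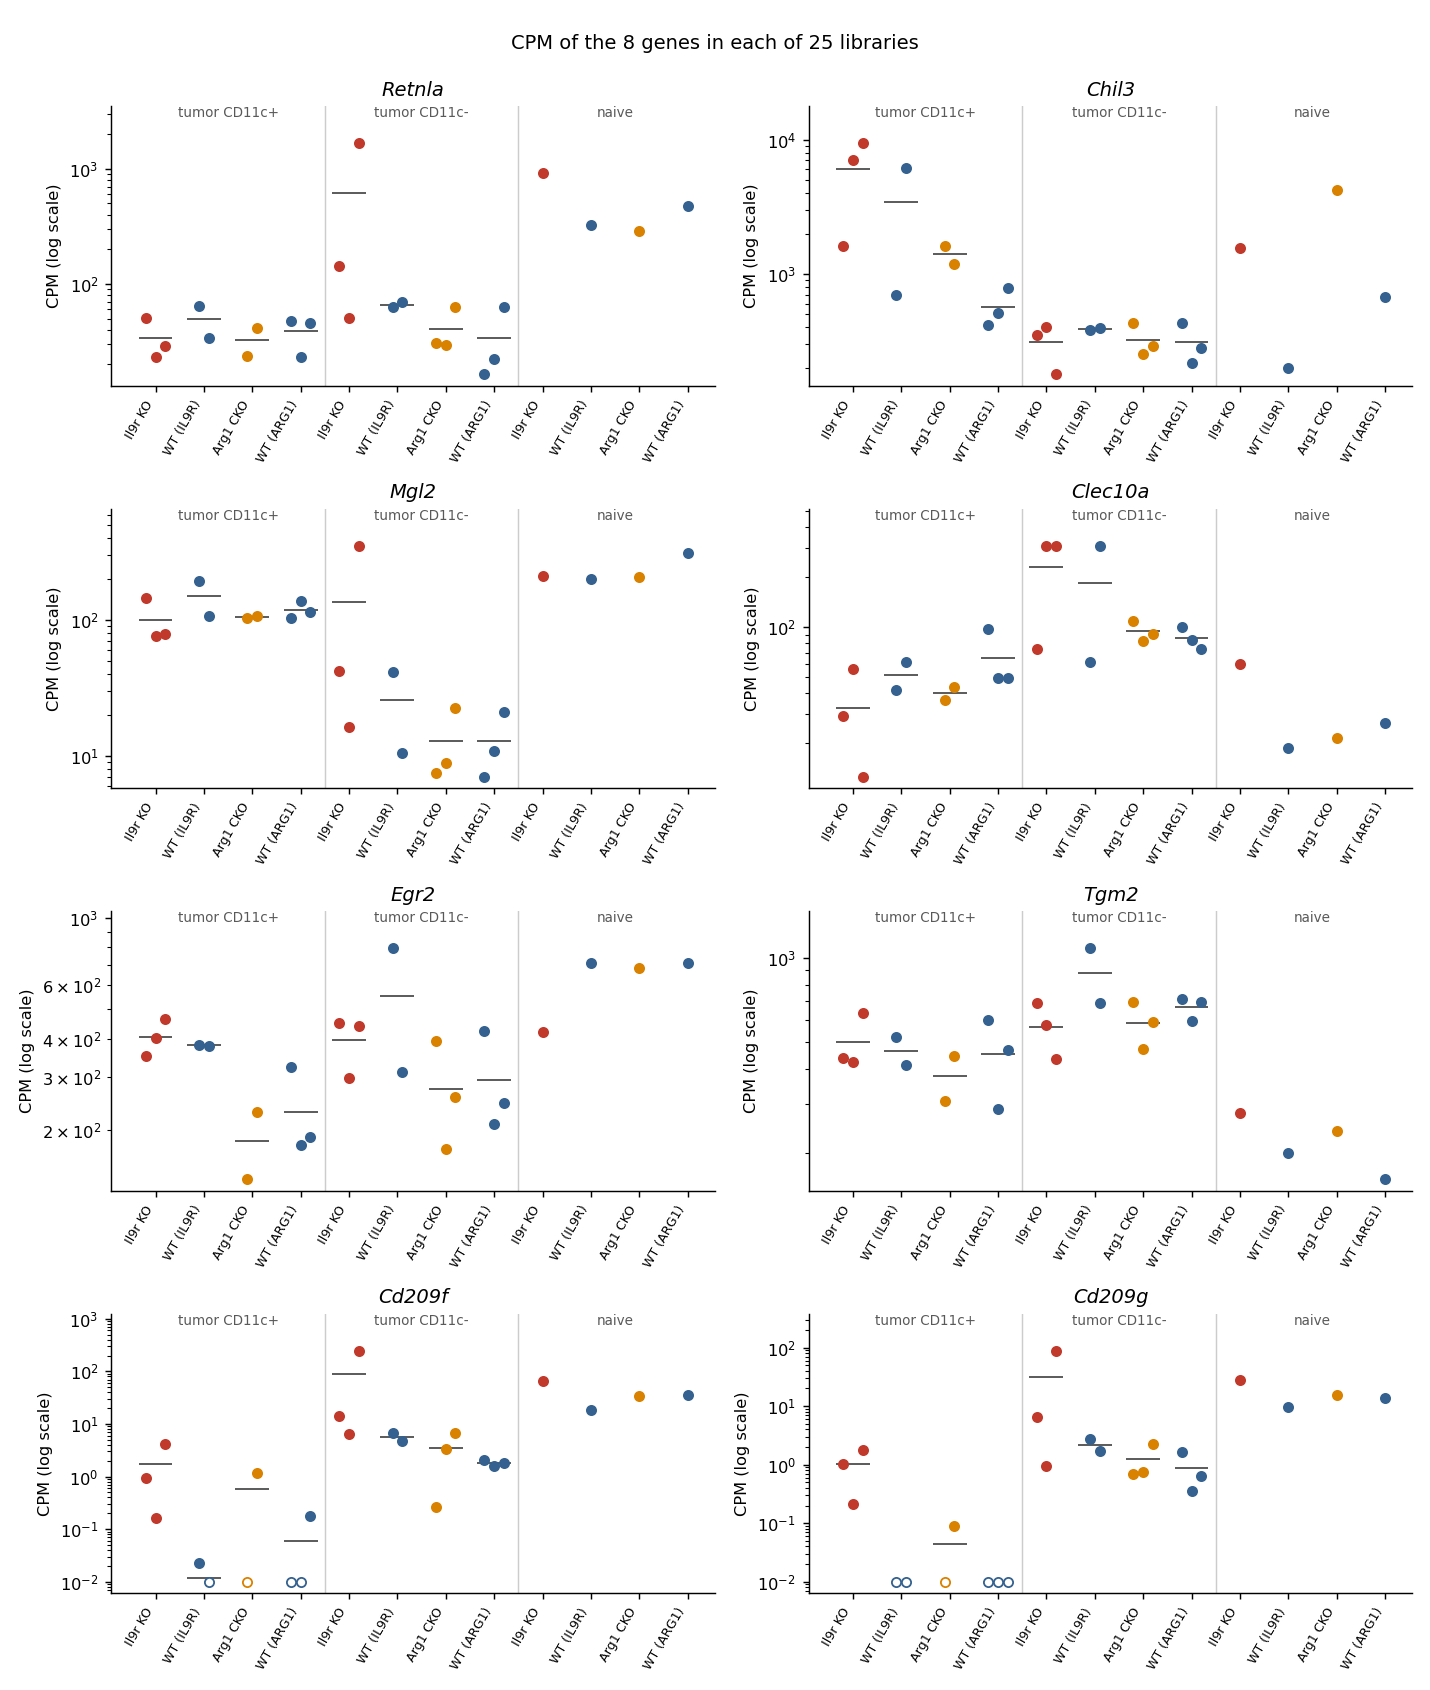
CPM (log scale) of the 8 genes in each of the 25 libraries, as points, with the group mean as a line. Open points mark libraries with 0 reads, drawn at 0.01. Cd209f and Cd209g are at or near 0 in WT CD11c+ IM and highest in naive macrophages and in 1 CD11c- library labelled Il9r KO, which also holds 1666 CPM of Retnla.

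The CD11c+ and CD11c- subsets of WT tumor IM differed in 5 of the 8 genes. Chil3 and Mgl2 were higher in CD11c+ IM, and Tgm2, Cd209f and Cd209g were lower. Of all 13434 genes tested, 11.5% passed in this comparison, 5.44% higher and 6.10% lower (edgeR quasi-likelihood test, Benjamini-Hochberg adjusted p under 0.05, as in all results below). The median log2 fold change was -0.61 over the 8 genes and 0.00 over all genes. In bulk libraries, fewer cells of a type and less RNA per cell cannot be told apart.

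Of the secreted products, Retnla was at 47.3, 23.2, 45.8, 64.8 and 34.1 CPM in the 5 WT CD11c+ libraries and at 16.5, 22.3, 62.5, 63.1 and 69.2 CPM in the 5 WT CD11c- libraries (the 3 ARG1 libraries first). The groups overlapped and the log2 fold change was -0.12 (SE 0.65, adjusted p = 0.964). Chil3 was at 413, 511, 788, 702 and 6118 CPM in WT CD11c+ and at 428, 218, 283, 383 and 398 CPM in WT CD11c- libraries. Most of the Chil3 signal of the CD11c+ group lay in 1 library, IL9R WT 2, and the lowest CD11c+ library was below the highest CD11c- library. The log2 fold change of 1.99 (SE 0.49) passed (adjusted p = 0.012). Without IL9R CD11c+ WT 2 it was 0.85 and did not pass, and it also did not pass without IL9R CD11c- WT 1 (1.98) or WT 2 (2.01). The 13 alveolar macrophage markers other than Chil3 summed to 466 CPM in IL9R CD11c+ WT 2, of which Car4 was 61.2 CPM. The sums were 170.2 to 196 CPM in the other WT CD11c+ and 179 to 428 CPM in the WT CD11c- libraries. The CD11c- sums held 115.4 to 330.2 CPM of Cxcl3, which was at 29.23 to 82.86 CPM in WT CD11c+ libraries. Plet1 was at 146.6 CPM in IL9R CD11c+ WT 2, 3.117 to 17.15 CPM in the other WT CD11c+ and 0.0513 to 1.081 CPM in the WT CD11c- libraries. The part of these markers in the result was not tested.

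Of the galactose-type lectins, Mgl2 was at 104, 139, 116, 195 and 107 CPM in WT CD11c+ and at 7.03, 10.8, 21.0, 41.2 and 10.5 CPM in WT CD11c- libraries. Every CD11c+ library was above every CD11c- library, and the log2 fold change was 2.87 (SE 0.67, adjusted p = 0.00903). It was 2.53 without IL9R CD11c- WT 2 and then did not pass. The sum of the 11 dendritic cell markers other than Mgl2 moved with it, at 192 to 437 CPM in WT CD11c+ and 14.6 to 72.8 CPM in WT CD11c- libraries. Ccr7, at 92.78 to 209.6 CPM, and Ccl22, at 52.85 to 168.3 CPM, were large parts of the WT CD11c+ sums. Dpp4 overlapped, at 1.304 to 14.26 CPM in WT CD11c+ and 0.7077 to 17.89 CPM in WT CD11c- libraries. Clec9a did as well, at 0.02315 to 1.587 CPM and 0 to 1.233 CPM. Of the markers that define these cells, Flt3 was at 2.295 to 4.80 CPM in WT CD11c+ and 0.405 to 2.44 CPM in WT CD11c- IM. Zbtb46 was at 0.9962 to 6.123 CPM in WT CD11c+ and 0 to 2.309 CPM in WT CD11c- IM. The part of these markers in the result was not tested. Clec10a, whose gene lies 18646 bases from Mgl2 on chromosome 11, was at 97.4, 49.1, 49.4, 41.4 and 61.6 CPM in WT CD11c+ and at 99.5, 83.9, 73.9, 61.8 and 307 CPM in WT CD11c- libraries. The groups overlapped and the log2 fold change of -1.13 (SE 0.44, adjusted p = 0.11) did not pass, except without IL9R CD11c- WT 1, where it was -1.50. Of these neighbouring genes only Mgl2 passed, and their log2 fold changes had opposite signs. Mgl2 and Clec10a share 16.5% and 10.6% of their 50-base words with other transcripts, largely each other.

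Both Cd209 lectin genes were lower in CD11c+ IM. Cd209f was at 0, 0, 0.181, 0.0232 and 0 CPM in WT CD11c+ and at 2.08, 1.56, 1.82, 6.59 and 4.70 CPM in WT CD11c- libraries, which did not overlap (log2 fold change -6.55, SE 1.60, adjusted p = 0.0124). Leaving out IL9R CD11c+ WT 1 (-7.72) or WT 2 (-6.19) ended this call. Cd209g had 0 reads in all 5 WT CD11c+ libraries and 14 to 121 reads in the WT CD11c- libraries, with 1.65, 0.359, 0.636, 2.71 and 1.69 CPM. With a floor of 3 counts per library it was at least 19.2-fold lower in CD11c+ IM (adjusted p = 0.0034), and this call held without any 1 of the 10 libraries. The floor covers counting error only. The sum of the 9 other markers of Lyve1+ interstitial macrophages moved the same way. It was 891 to 1562 CPM in WT CD11c+ and 2709 to 3632 CPM in WT CD11c- libraries, and Lyve1 was at 0 to 3.65 CPM and 11.0 to 80.8 CPM. Not every marker followed the sum. Gas6 was at 74.36 to 154 CPM in WT CD11c+ and 79.22 to 189.4 CPM in WT CD11c- libraries. Timd4 was at 0.6019 to 2.753 CPM and 0.5404 to 2.045 CPM. Their part in the result was not tested.

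Tgm2 and Egr2 are the remaining genes of the 8. Tgm2 was at 597, 288, 467, 518 and 412 CPM in WT CD11c+ and at 710.4, 595, 696, 1080.0 and 689 CPM in WT CD11c- libraries. The groups overlapped by 1 CD11c+ and 1 CD11c- library, and the log2 fold change of -0.76 (SE 0.21) passed (adjusted p = 0.0207), though not without IL9R CD11c- WT 1 (-0.58) or IL9R CD11c+ WT 2 (-0.68). Egr2 averaged 290.1 ± 99.7 CPM in WT CD11c+ and 397 ± 236 CPM in WT CD11c- IM (SD, n = 5 each), and its log2 fold change of -0.45 (SE 0.28) did not pass (adjusted p = 0.321).

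**Figure D2:**
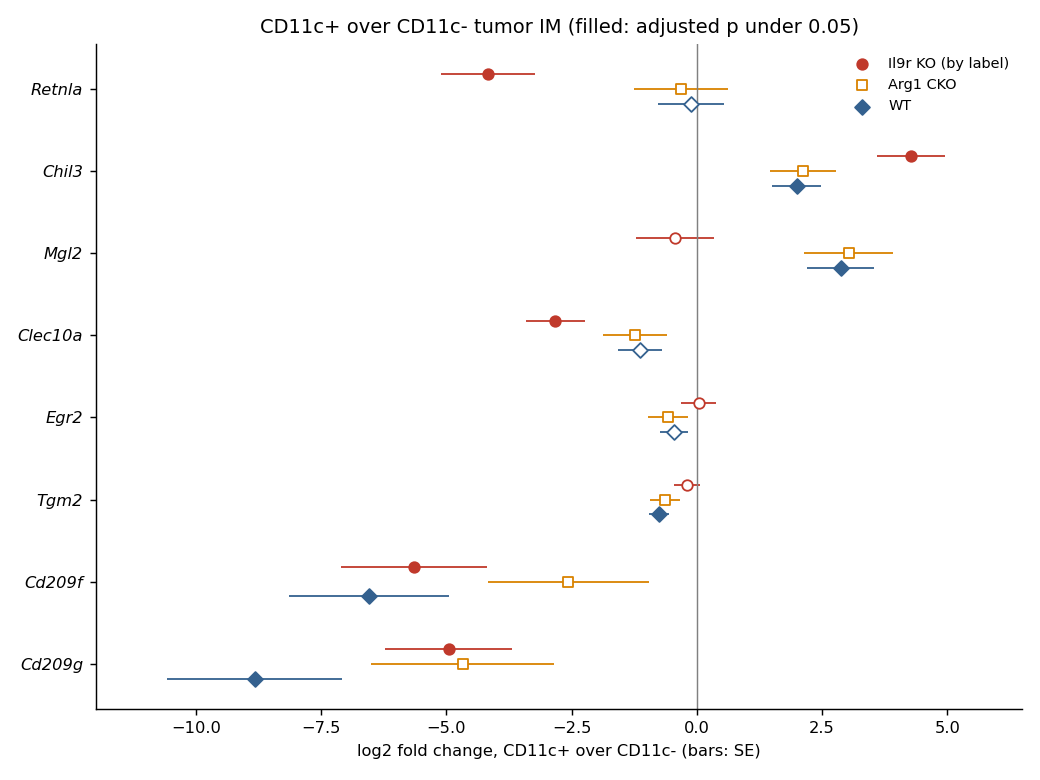
Log2 fold change of CD11c+ over CD11c- tumor IM (bars, SE) for the 8 genes in cells labelled Il9r KO, in Arg1 CKO cells and in WT cells. Filled symbols passed the test. Chil3 is to the right of 0 in all 3 (4.27, 2.12 and 1.99) and Cd209f and Cd209g to the left, and the fitted value of Cd209g in WT cells depends on the prior count, since its CD11c+ libraries hold 0 reads.

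In cells labelled Il9r KO, 5 of the 8 genes also differed between CD11c+ and CD11c- IM, where 5.94% of all genes passed, 2.80% higher and 3.14% lower (median log2 fold change -1.64 over the 8 genes, or -0.93 without CD11c- Il9r KO 3, and 0.03 over all genes). Chil3 was higher in CD11c+ IM, and Clec10a, Retnla, Cd209f and Cd209g were lower. Chil3 was at 1602, 7074 and 9398 CPM in the CD11c+ and at 352, 401 and 179 CPM in the CD11c- libraries, with no overlap (log2 fold change 4.27, SE 0.68, adjusted p = 0.000828). This call held without any 1 of the 6 libraries, with values of 3.79 to 4.72. The other alveolar macrophage markers summed to 205, 540.3 and 1345 CPM in these CD11c+ libraries, in the order of Chil3. In the CD11c- libraries they summed to 231, 181 and 116 CPM. Of these, Cxcl3 was at 46.78, 27.92 and 12.11 CPM in CD11c+ and at 138.7, 116 and 32.42 CPM in CD11c- libraries. Plet1 was at 32.09, 157.7 and 420.2 CPM in CD11c+ and at 1.495, 0.7822 and 3.17 CPM in CD11c- libraries. The part of these markers in the result was not tested. The CD11c+ library labelled Il9r KO 3 also held 366 CPM of Tyrp1, a melanoma gene, against 8.96 to 37.5 CPM in the other CD11c+ libraries.

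Clec10a was at 28.9, 56.1 and 12.5 CPM in CD11c+ and at 73.9, 308 and 307 CPM in CD11c- libraries labelled Il9r KO, also without overlap (log2 fold change -2.83, SE 0.59, adjusted p = 0.00577). Retnla was at 50.6, 23.1 and 28.8 CPM in these CD11c+ libraries and at 143, 50.4 and 1666 CPM in the CD11c- libraries, where CD11c+ 1 just exceeded CD11c- 2. Cd209f was at 0.948, 0.161 and 4.12 CPM in CD11c+ and at 13.9, 6.53 and 246 CPM in CD11c- libraries, and Cd209g at 1.02, 0.215 and 1.79 CPM against 6.43, 0.930 and 87.9 CPM. The log2 fold changes were -4.18 for Retnla (SE 0.94, adjusted p = 0.0111), -5.64 for Cd209f (SE 1.45, adjusted p = 0.0263) and -4.96 for Cd209g (SE 1.28, adjusted p = 0.0278). Without CD11c- Il9r KO 3 they were -1.51, -2.56 and -1.87 and did not pass, while Chil3 (3.99) and Clec10a (-2.57) did. With only these 2 groups in the fit, the call of Chil3 held. Those of Clec10a, Retnla, Cd209f and Cd209g were lost, at almost the same fold changes. Of all genes, 343 passed in that fit, against 798 in the main fit.

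These 3 calls also turned on the CD11c+ libraries labelled Il9r KO. Without CD11c+ 1, Cd209f (-5.35) and Cd209g (-4.96) were lost. Without CD11c+ 2, Retnla (-3.98), Cd209f (-5.15) and Cd209g (-4.52) were lost, and without CD11c+ 3, Retnla (-4.07) and Cd209g (-5.66). Mgl2 was at 147, 76.0 and 78.7 CPM in CD11c+ and at 42.0, 16.2 and 353 CPM in CD11c- libraries. Its log2 fold change of -0.44 (SE 0.78) did not pass (adjusted p = 0.848), and it turned to 1.78 without CD11c- 3. The other dendritic cell markers summed to 31.7 to 92.7 CPM in these CD11c- libraries. Ccr7 was at 34.01, 8.034 and 0.824 CPM and Ccl22 at 16.78, 7.23 and 0.374 CPM, lowest in CD11c- 3, where Mgl2 was highest. Other markers went the other way, with Zbtb46 at 3.844, Batf3 at 16.77 and Kmo at 13.2 CPM highest in CD11c- 3. Their part in the result was not tested. Without both libraries labelled Il9r KO 3, a choice made after the values were seen, Chil3 alone of the 8 genes passed (3.51). Of all genes, 378 passed in that fit, against 798 with all libraries.

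In the Arg1 CKO cells, the edgeR test called 0 of the 8 genes between CD11c+ and CD11c- IM, where 2.89% of all genes passed (1.64% higher, 1.25% lower) and 2066 genes had an unadjusted p under 0.05. DESeq2 called 2, Chil3 and Mgl2. Chil3 was at 1625 and 1186 CPM in CD11c+ and at 429, 253 and 290.3 CPM in CD11c- libraries, and its log2 fold change was 2.12 (SE 0.66, adjusted p = 0.0952). Mgl2 was at 104 and 107 CPM in CD11c+ and at 7.53, 8.86 and 22.5 CPM in CD11c- libraries, a log2 fold change of 3.03 (SE 0.88, adjusted p = 0.0793). In WT cells the values of Chil3 and Mgl2 were 1.99 and 2.87. Neither gene overlapped between the groups, and nor did Clec10a, Tgm2 and Cd209g, but the comparison had 2 libraries against 3. The share of all genes without overlap was not counted, so this is description only. Clec10a was at 36.2 and 43.2 CPM in CD11c+ and at 109, 82.6 and 91.0 CPM in CD11c- libraries, a log2 fold change of -1.24 (SE 0.64, adjusted p = 0.376). With only these 2 groups in the fit, Chil3, Mgl2 and Clec10a passed. Of all genes, 872 passed in that fit, against 388 in the main fit.

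Tumor IM of both subsets differed from naive macrophages in most of the 8 genes in WT cells. Retnla, Cd209f and Cd209g were lower in both tumor subsets and Tgm2 was higher in both. In CD11c- IM, 6 of the 8 genes passed (2 higher and 4 lower), against 23.2% of all 13170 genes tested (13.0% higher and 10.2% lower). In CD11c+ IM 5 passed (1 higher and 4 lower), also against 23.2% (13.7% higher and 9.54% lower). The median log2 fold change of the 8 genes was -1.98 in CD11c- and -1.11 in CD11c+ IM, against -0.03 and -0.02 over all genes. The 2 comparisons share the 2 naive WT libraries.

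Retnla was at 16.5 to 69.2 CPM in the 10 WT tumor libraries and at 322 and 473 CPM in the naive WT libraries of the IL9R and ARG1 chimeras. No tumor library came near a naive one. The log2 fold change was -3.20 in CD11c+ (SE 0.43, adjusted p = 0.000276) and -3.13 in CD11c- IM (SE 0.43, adjusted p = 0.000133). Chil3 was at 197 and 678 CPM in naive WT cells, which lay below and above all WT CD11c- libraries, and passed in neither subset (log2 fold changes 1.41, SE 0.89, and -0.54, SE 0.76).

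Mgl2 was at 199.9 and 309.7 CPM in naive WT cells, above all WT tumor libraries. It was lower in CD11c- IM (log2 fold change -3.87, SE 0.45, adjusted p = 3.82e-05), while its value in CD11c+ IM of -0.94 (SE 0.45) did not pass (adjusted p = 0.15). The dendritic cell markers summed to 192 to 437 CPM in WT CD11c+, 14.6 to 72.8 CPM in WT CD11c- libraries and 208 and 392.4 CPM in naive WT libraries. Like Mgl2, the sums were higher in naive than in CD11c- libraries. Unlike Mgl2, the naive sums lay within the range of the CD11c+ sums. The part of these markers in the result was not tested. Clec10a, by contrast, was lowest in naive WT cells, at 18.6 and 26.2 CPM. It was higher in CD11c- IM (log2 fold change 2.47, SE 0.59, adjusted p = 0.00746), though not without the IL9R naive WT library (2.05), and did not pass in CD11c+ IM (1.46, SE 0.55, adjusted p = 0.0698).

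Cd209f was at 18.2 and 35.03 CPM and Cd209g at 9.70 and 13.8 CPM in naive WT macrophages, above every WT tumor library of either subset. In CD11c- IM the log2 fold changes were -3.11 for Cd209f (SE 0.72, adjusted p = 0.00608) and -3.19 for Cd209g (SE 0.71, adjusted p = 0.00806). Without the ARG1 naive WT library they were -2.13 and -2.17 and did not pass. In CD11c+ IM the log2 fold change of Cd209f was -8.98 (SE 0.89, adjusted p = 3.56e-05), and Cd209g, with 0 reads, was at least 160.1-fold lower (adjusted p = 9.16e-05). The order of naive above CD11c- above CD11c+ differed from that of the summed other Lyve1+ interstitial macrophage markers. The sums were 891 to 1562 CPM in WT CD11c+, 2709 to 3632 CPM in WT CD11c- and 677 to 685 CPM in naive WT libraries. Single markers did not all follow the sum. Timd4 was at 5.095 and 5.676 CPM in naive WT and at most 2.753 CPM in WT tumor libraries. Fcna was at 47.69 and 79.9 CPM in naive WT, 28.56 to 70.39 CPM in WT CD11c- and 13.36 to 42.65 CPM in WT CD11c+ libraries.

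Tgm2 was at 161 and 199 CPM in naive WT cells, below every WT tumor library. The log2 fold change was 1.41 in CD11c+ (SE 0.27, adjusted p = 0.00214) and 2.11 in CD11c- IM (SE 0.28, adjusted p = 0.000104). Egr2 was at 179 to 382 CPM in the 5 WT CD11c+ libraries, against 709 CPM in both naive WT libraries. It was lower in CD11c+ IM (log2 fold change -1.28, SE 0.33, adjusted p = 0.0126), but not without the ARG1 naive WT library (-0.81). Its value of -0.85 in CD11c- IM (SE 0.34) did not pass the edgeR test (adjusted p = 0.0821), though DESeq2 called it (-0.86). IL9R CD11c- WT 1 held 792 CPM, and without that library the value was -1.16 and passed.

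**Figure D3:**
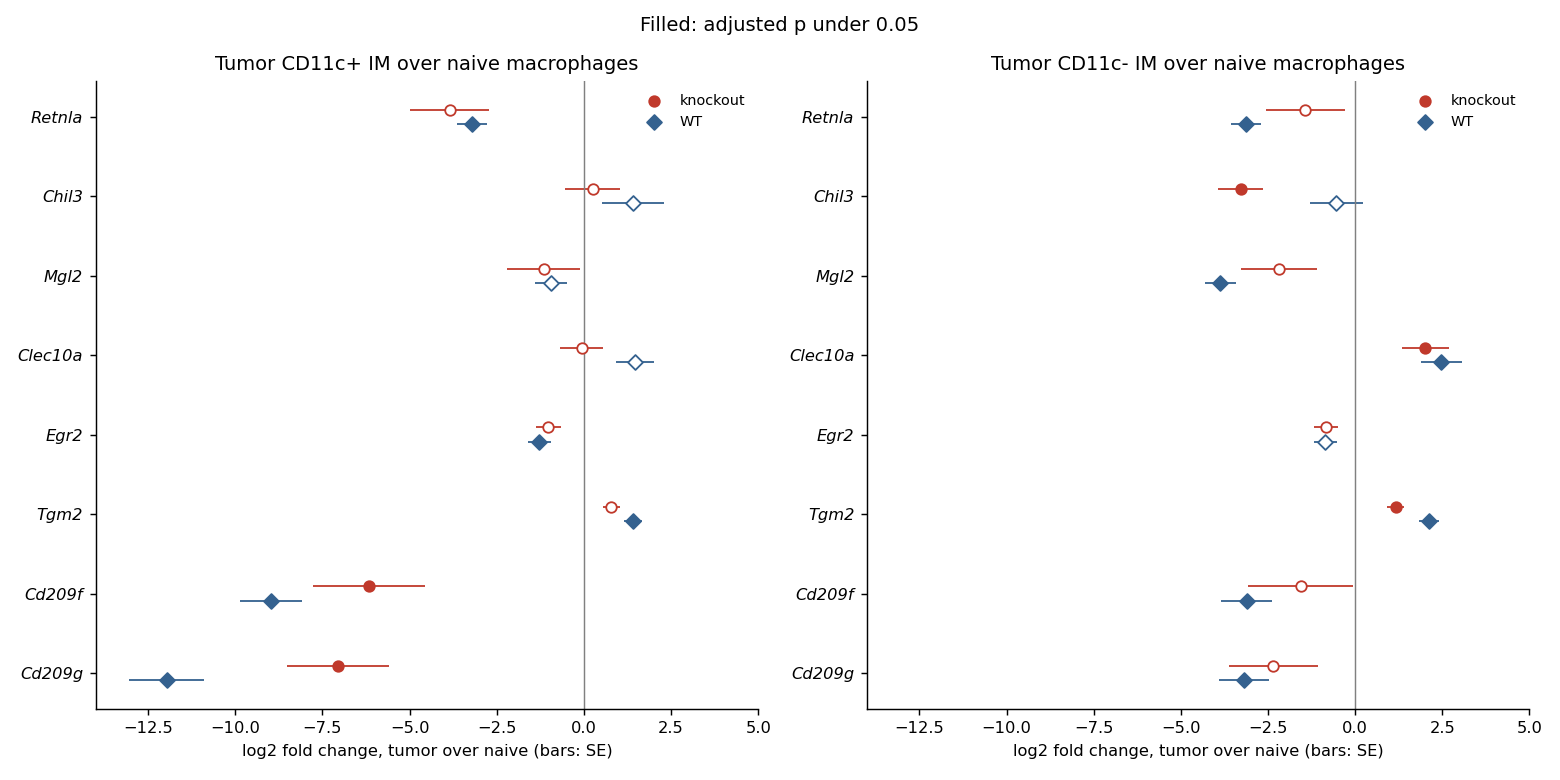
Log2 fold change of tumor IM over naive macrophages (bars, SE) for the 8 genes in knockout cells (Il9r KO by label and Arg1 CKO together) and in WT cells, with CD11c+ IM in the left panel and CD11c- IM in the right. Filled symbols passed the test. In WT cells Retnla is near -3 and Tgm2 above 1 in both subsets, and Cd209g in WT CD11c+ IM rests on 0 reads, so its position depends on the prior count.

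In the knockout cells of both chimera kinds, fitted together, fewer of these genes passed. Against naive cells, 2 of the 8 passed in CD11c+ IM, where 5.71% of all 13356 genes passed (3.02% higher, 2.70% lower), and 3 in CD11c- IM, where 23.0% passed (11.3% higher, 11.7% lower). In CD11c+ IM these were Cd209f (log2 fold change -6.16, SE 1.61, adjusted p = 0.0467) and Cd209g (-7.05, SE 1.46, adjusted p = 0.0209). Both were lost without ARG1 CD11c+ CKO 1, ARG1 CD11c+ CKO 2, IL9R CD11c+ KO 1 or the ARG1 naive CKO library (-4.54 and -4.72), and Cd209f without IL9R CD11c+ KO 2. Retnla was at 23.1 to 50.6 CPM in the 5 knockout CD11c+ libraries and at 929 and 288 CPM in the naive Il9r KO and Arg1 CKO libraries. It did not overlap, but its log2 fold change of -3.85 (SE 1.13) did not pass the edgeR test (adjusted p = 0.0625). The share of all genes without overlap was not counted. DESeq2 called Retnla (-3.81), Tgm2 (0.81), Egr2 and Cd209g in this comparison and gave no adjusted p for Cd209f.

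In knockout CD11c- IM, Chil3 (log2 fold change -3.28, SE 0.64, adjusted p = 0.00362) was lower and Tgm2 (1.16, SE 0.25, adjusted p = 0.00481) and Clec10a (2.01, SE 0.67, adjusted p = 0.0445) were higher than in naive cells. Chil3 was at 179 to 429 CPM (median 321) in the 6 CD11c- libraries and at 1557 and 4213 CPM in the naive Il9r KO and Arg1 CKO libraries. Those naive libraries also held alveolar macrophage marker sums of 429 and 888 CPM, against 116 to 387 CPM in knockout CD11c- IM. Of these, Cxcl3 was at 30.18 and 21.56 CPM in the naive libraries and 32.42 to 289.7 CPM in knockout CD11c- IM. Plet1 was at 95.98 and 230.9 CPM against 0.6537 to 3.17 CPM. The naive Arg1 CKO library also held 359 CPM of Scgb1a1. The part of these genes in the result was not tested. Without the naive Arg1 CKO library, which left 1 naive library, the calls of Chil3 (-1.77), Tgm2 (1.17) and Clec10a (1.66) were lost. That loss was not set against all genes, so it cannot be read as particular to these genes. Clec10a was also lost without ARG1 CD11c- CKO 1 (2.06) or CKO 3 (2.11), IL9R CD11c- KO 2 (1.82) or KO 3 (1.83), or the naive Il9r KO library (2.53). Without CD11c- Il9r KO 3, 5 of the 8 passed, with Retnla at -3.11, Mgl2 at -3.45 and Cd209g at -3.32 joining Chil3 (-3.15) and Tgm2 (1.28). No library left out raised the number of all genes called in this comparison above the 3077 of all libraries.

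Between knockout and WT cells of the same subset, none of the 8 genes passed the edgeR test. The WT marrow of the IL9R chimeras was Boyj, so genotype and donor strain cannot be told apart there, and the strain of the WT marrow of the ARG1 chimeras is not given in the sources used here. Of all genes, 0.0521% passed for Il9r with the subsets pooled, 0.0298% for CD11c+ IM alone and 0.0223% for CD11c- IM alone, while 562, 380 and 836 genes had an unadjusted p under 0.05. For Arg1 it was 0.0372%, 0.0447% and 0.00744%, with 519, 779 and 193 genes at an unadjusted p under 0.05. By DESeq2, 53, 34 and 29 genes passed for Il9r and 25, 44 and 10 for Arg1. The difference of the genotype effects between the subsets was called by edgeR for 0% of genes in both chimera kinds, with 740 and 519 genes at an unadjusted p under 0.05, and by DESeq2 for 7 and 18 genes.

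The largest log2 fold changes by Il9r label were those of the Cd209 genes. In CD11c+ IM, Cd209f had 38, 6 and 191 reads in the 3 libraries labelled Il9r KO and 1 and 0 reads in the 2 WT libraries. The summed rates gave a ratio of 148, with an exact 95% counting interval of 26.3 to 5876 that covers counting error only. Cd209g was at 1.02, 0.215 and 1.79 CPM in libraries labelled Il9r KO and had 0 reads in both WT libraries, which makes it at least 13.0-fold higher. Over both subsets the fitted log2 fold changes were 5.38 for Cd209f (SE 1.53, adjusted p = 0.99) and 6.10 for Cd209g (SE 1.48, adjusted p = 0.473), and these depend on the prior count for the libraries without reads. Without CD11c- Il9r KO 3 they were 3.83 and 4.55. With same-numbered libraries matched in a replicate block by chimera, subset and number, they were 3.01 and 3.97. DESeq2 called both genes (adjusted p = 0.0455 for Cd209f and 0.00297 for Cd209g), and the adjusted p ran up to 1 over the other alternatives for each. In CD11c+ IM the 3 labelled Il9r KO libraries were above the 2 WT libraries for both genes, and the share of all genes separated this way was not counted.

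In CD11c- IM the differences by Il9r label rested on 1 library. Retnla was at 143, 50.4 and 1666 CPM in libraries labelled Il9r KO and at 63.1 and 69.2 CPM in WT libraries, so the KO libraries lay on both sides of the WT ones. Its log2 fold change was 3.21 (SE 1.06, adjusted p = 0.777) and fell to 0.55 without KO 3. Likewise Mgl2 had 2.39 with and 0.17 without that library, Cd209f 3.96 and 0.86, and Cd209g 3.83 and 0.74. With all libraries and a replicate block by chimera, subset and number, the values were 0.37 for Retnla, 0.32 for Mgl2, 0.78 for Cd209f and 0.23 for Cd209g. The difference of the Il9r effect on Retnla between the subsets (CD11c+ minus CD11c-) was -3.74 with and -1.08 without CD11c- KO 3 (SE 1.35 with it, adjusted p = 0.861). Tgm2 in CD11c- IM did not overlap by Il9r label, at 688, 576 and 433 CPM in KO libraries and 1080.0 and 689 CPM in WT libraries. The nearest libraries of the 2 groups were at 688 and 689 CPM, and the log2 fold change of -0.65 (SE 0.29) did not pass (adjusted p = 0.777). The share of all genes without overlap was not counted.

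For Clec10a in CD11c- IM and Chil3 in CD11c+ IM, libraries of the IL9R chimeras with the same number in the labels were closer than the libraries numbered 1 and 2 of one genotype. In CD11c- IM, Clec10a was at 73.9 CPM in KO 1 and 61.8 CPM in WT 1, and at 308 CPM in KO 2 and 307 CPM in WT 2. In CD11c+ IM, Chil3 was at 1602 CPM in KO 1 and 702 CPM in WT 1, and at 7074 CPM in KO 2 and 6118 CPM in WT 2. The alveolar macrophage markers followed the numbers as well, at 205 CPM in KO 1 and 170.2 CPM in WT 1, and at 540.3 CPM in KO 2 and 466 CPM in WT 2. This did not hold for every gene. In CD11c- IM with number 1, Retnla was at 143 CPM in KO and 63.1 CPM in WT cells, Egr2 at 449 CPM in KO and 792 CPM in WT cells, and Tgm2 at 688 CPM in KO and 1080.0 CPM in WT cells. Both libraries with number 3 are labelled Il9r KO and have no WT library of their number.

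**Figure D4:**
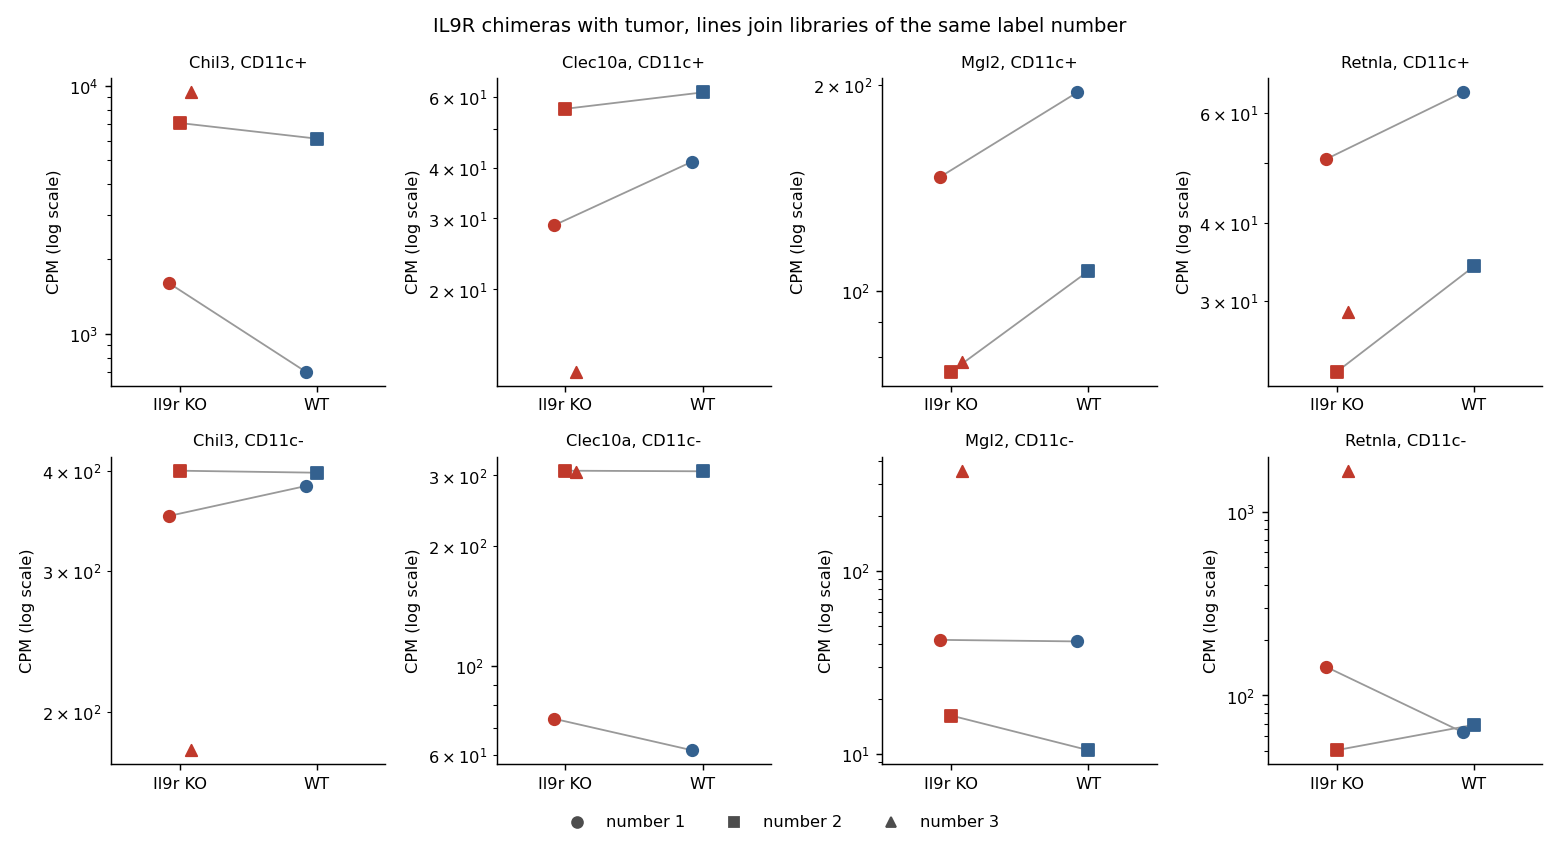
CPM (log scale) of Chil3, Clec10a, Mgl2 and Retnla in the IL9R chimeras with tumor, in libraries labelled Il9r KO and WT, CD11c+ IM above and CD11c- IM below. Lines join libraries with the same number. Clec10a in CD11c- IM is at 308 and 307 CPM in number 2 and at 73.9 and 61.8 CPM in number 1, and number 3 has no WT library.

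Between Arg1 CKO and WT cells, Chil3 and Clec10a in CD11c+ IM did not overlap. The share of all genes without overlap was not counted, so this is description only. Chil3 was at 1625 and 1186 CPM in CKO and at 413, 511 and 788 CPM in WT libraries, with a log2 fold change of 1.30 (SE 0.65) that did not pass (adjusted p = 0.775). The alveolar macrophage markers other than Chil3 summed to 201 to 225 CPM in these CKO and 179 to 196 CPM in these WT libraries. Of these, Plet1 was at 31.28 and 19.06 CPM in CKO and 3.117 to 17.15 CPM in WT libraries. Car4 was at 2.72 and 1.1 CPM in CKO and 0.9635 to 2.663 CPM in WT libraries. Clec10a was at 36.2 and 43.2 CPM in CKO and at 97.4, 49.1 and 49.4 CPM in WT libraries of CD11c+ IM, with the nearest at 43.2 and 49.1 CPM (log2 fold change -0.72, SE 0.63, adjusted p = 0.846). In CD11c- IM the groups of all 8 genes overlapped. Retnla averaged 37.4 ± 15.5 CPM in CKO and 36.3 ± 18.2 CPM in WT libraries of both subsets (SD, n = 5 and 6). The fitted differences over both subsets were -0.22 for Egr2 (SE 0.26) and -0.23 for Tgm2 (SE 0.20) on the log2 scale.

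Within each chimera kind, naive macrophages had 1 library per genotype, and no test was made on them. Chil3 was higher in the knockout library of both chimera kinds, 7.89-fold for Il9r KO (1557 against 197 CPM) and 6.21-fold for Arg1 CKO (4213 against 678 CPM). Those knockout libraries also had the higher alveolar macrophage marker sums, 429 against 93.8 CPM and 888 against 170.0 CPM, and their part in the result was not tested. Retnla was at 929 CPM in naive cells labelled Il9r KO and 322 CPM in WT cells, and at 288 CPM in Arg1 CKO and 473 CPM in WT cells.

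Of 13 measured genes of the IL-4 and IL-13 receptor and STAT6 pathway, 2 were higher and 4 lower in WT CD11c+ than in WT CD11c- IM, where 11.5% of all genes passed (median log2 fold change -0.39). Il4ra, the receptor chain shared by IL-4 and IL-13, averaged 341 ± 95.0 CPM in CD11c+ and 719 ± 160 CPM in CD11c- IM (SD, n = 5 each), without overlap (log2 fold change -1.15, SE 0.19, adjusted p = 0.000686). Stat6 itself was lower as well (-0.59, SE 0.17, adjusted p = 0.0253), while Irs2, an adaptor of the receptor, and Cish, a feedback inhibitor of cytokine receptors, were higher (0.73 and 1.48). In cells labelled Il9r KO, Il4ra was also lower in CD11c+ IM (-1.15, SE 0.25), and Il13ra1 higher (0.71).

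Against naive cells, WT CD11c- IM had 2 of these 13 genes higher and 3 lower, and WT CD11c+ IM 0 higher and 4 lower, where 23.2% of all genes passed in each. Il4ra averaged 719 CPM in WT CD11c- IM and 265 CPM in naive WT cells (log2 fold change 1.48, SE 0.27, adjusted p = 0.00137). Cish was lower than in naive cells in each subset, with log2 fold changes of -1.19 (CD11c+) and -2.63 (CD11c-). In WT CD11c- IM the receptor gene was thus higher where Retnla and Mgl2 were lower, and Clec10a and Tgm2 higher, than in naive cells.

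Of 16 regulators of alternative activation, 2 were higher (Rxra and Egr3) and 1 lower (Nab1) in WT CD11c+ than in WT CD11c- IM. Of all genes, 11.5% passed in this comparison. Against naive cells, 4 were higher and 5 lower in WT CD11c- IM and 2 higher and 4 lower in WT CD11c+ IM, against 23.2% of all genes in each. Maf, a transcription factor of resident macrophages, was higher in both tumor subsets, with means of 109.6 CPM (WT CD11c+) and 174 CPM (WT CD11c-) against 7.91 CPM in naive WT cells (log2 fold changes 3.62 and 4.19). Irf4, a transcription factor that acts downstream of IL-4, was at 4.50 and 2.45 CPM against 20.2 CPM in naive WT cells (-2.35 and -3.02).

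Among 29 other measured targets of alternative activation, 11 were higher and 7 lower in WT CD11c+ than in WT CD11c- IM, against 11.5% of all genes (median log2 fold change 0.32). Mmp12, a macrophage elastase, averaged 761 CPM in WT CD11c+ IM, against 87.8 CPM in WT CD11c- IM (log2 fold change 3.11, SE 0.34), and Ccl17, a chemokine of dendritic cells and macrophages, at 48.2 and 0.548 CPM (6.56, SE 0.76). F13a1, the coagulation factor XIII A chain and like TGM2 a transglutaminase, was lower, with 293 CPM in WT CD11c+ IM against 1054 CPM in WT CD11c- IM (-1.91, SE 0.17). In cells labelled Il9r KO, 7 were higher and 7 lower (5.94% of all genes passed), and in Arg1 CKO cells 9 were higher and 1 lower (2.89% of all genes). Mmp12 was higher in both of these, with log2 fold changes of 3.54 and 3.67.

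The same list split evenly between WT CD11c- IM and naive cells, with 10 higher and 10 lower, and was higher for 9 and lower for 1 in WT CD11c+ IM, where 23.2% of all genes passed in each. Arg1, the arginase that is itself a classic target, averaged 1480 CPM in WT CD11c+, 4478 CPM in WT CD11c- and 26.7 CPM in naive WT cells (log2 fold changes 5.82, SE 0.48, and 7.46, SE 0.52). It was thus higher in the WT tumor cells in which Retnla was lower.

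In the Cd209 gene cluster, 7 genes were measured, and 3 passed in WT CD11c+ over WT CD11c- IM (11.5% of all genes). Over naive WT cells, 3 passed in WT CD11c+ and 4 in WT CD11c- IM (23.2% of all genes in each). Cd209a, a marker of some dendritic cells, went the other way from Cd209f and Cd209g between the subsets, at 13.0 CPM in WT CD11c+ and 2.71 CPM in WT CD11c- IM (log2 fold change 2.44, SE 0.60, adjusted p = 0.0111). It was also lower in WT CD11c- IM than in naive WT cells, which averaged 19.2 CPM (-3.06, SE 0.72), as were Cd209e, Cd209f and Cd209g. Cd209d, Cd209f and Cd209g were lower in WT CD11c+ IM than in naive WT cells.

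Of 3 measured genes of the chitinase-like family, Chil1, whose human counterpart encodes the secreted protein YKL-40, was lower in knockout cells over both subsets in both chimera kinds. It averaged 10.9 CPM in cells labelled Il9r KO and 75.0 CPM in WT cells (log2 fold change -2.94, SE 0.43, adjusted p = 0.00562), and 6.16 CPM in Arg1 CKO and 42.6 CPM in WT cells (-3.01, SE 0.46, adjusted p = 0.00744). In the IL9R chimeras this difference cannot be told apart from one of donor strain. The strain of the WT marrow of the ARG1 chimeras is not given, so genotype and donor strain cannot be told apart there either. Chil3, its relative, had log2 fold changes of 0.25 and 0.68 in these comparisons and did not pass. Chil3 shares 29.4% of its 50-base words with Chil4 and Gm6522, which leaves its counts uncertain to that extent.

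Across the 12 group means, Cd209f and Cd209g had a Pearson correlation of 0.993, and across the 25 libraries of 0.960. The points share libraries and depth, and the 2 genes share sequence. Retnla was nearest to this pair among the other 6 genes, at 0.845 with Cd209f and 0.850 with Cd209g over 12 groups. Mgl2 and Tgm2 ran against each other, at -0.836 over 12 groups and -0.673 over 25 libraries. Chil3 and Retnla stood at -0.00278 over 12 groups.

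**Figure D5:**
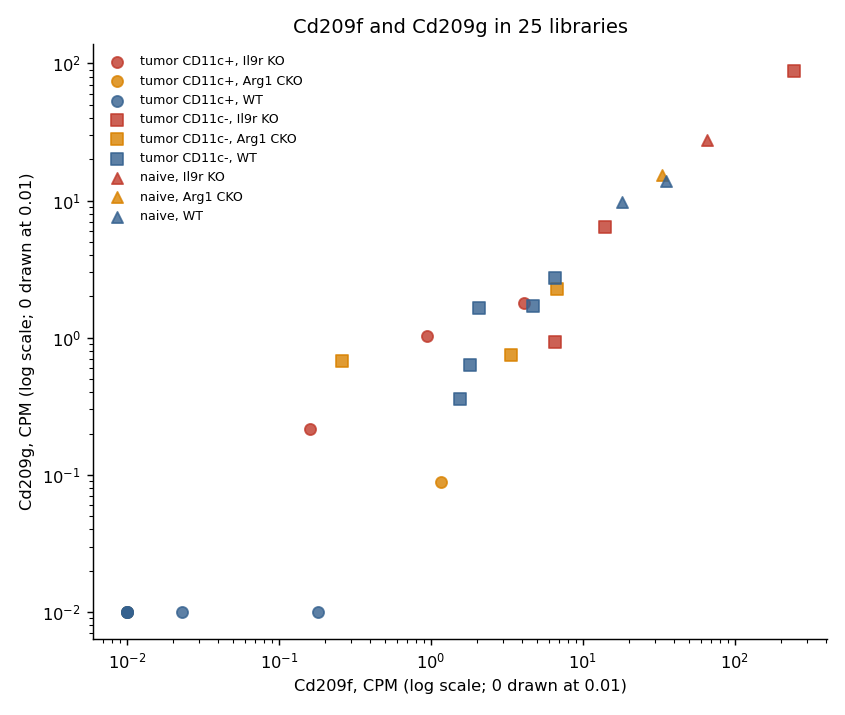
CPM of Cd209g against CPM of Cd209f (both log scales) in the 25 libraries, by population (marker shape) and genotype (colour), with 0 drawn at 0.01. The corner point stands for 3 WT and 1 Arg1 CKO library of CD11c+ IM without reads of either gene. The libraries run along a diagonal from WT CD11c+ IM at or near 0 to the CD11c- library labelled Il9r KO 3 at 246 and 87.9 CPM.

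By the same measure over the 12 groups, the genes most like Mgl2 were Cd74 (0.982), H2-Aa (0.982) and H2-Eb1 (0.978), which encode the invariant chain and chains of MHC class II. These also stayed near Mgl2 over the 25 libraries (0.968, 0.972 and 0.969). Nearest to Chil3 were Lta4h (0.981), Gmpr (0.940) and Aldoc (0.932), and nearest to Clec10a were H2-K1 (0.974), Marcksl1 (0.963) and Scamp2 (0.954). Egr2 was nearest to Ripk2 (0.981), Rnd3 (0.977) and Nr4a1 (0.977), and Tgm2 to Mapk6 (0.981), Ptpn1 (0.976) and Sptlc2 (0.973). For Cd209f and Cd209g the 3 nearest genes were the same, Cxcl13 (0.938 and 0.931), Stim2 (0.930 and 0.940) and Kifc3 (0.929 and 0.947). Retnla was nearest to Oraov1 (0.955), Nr1d1 (0.948) and Tmcc1 (0.925), but the first of these was far lower over the 25 libraries (0.464).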

How the data were processed

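The submitters' processing notes name FastQC 0.11.5, STAR 2.7.10a, featureCounts from Subread 2.0.3 and the mm10 genome. The authors deposited raw counts per gene in 1 table. The strand setting and the treatment of reads with several matches are not given in the sources used here. Genes were taken by symbol, because the table's identifiers named the same gene in only 271 of 12266 cases.

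The tests used edgeR 4.0.16 under R 4.3.3 (TMM, filterByExpr, robust quasi-likelihood, two-sided, Benjamini-Hochberg). The 21 tumor libraries were fitted together (13434 genes, 13 residual degrees of freedom), and tumor and naive cells within the 12 WT (13170 genes) and 13 knockout libraries (13356 genes). The scripts were tested on simulated counts. The alternatives were DESeq2 1.42.0, median-ratio size factors, no filter, groups fitted alone, each library left out and replicate blocks.

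The 8 genes and all lists were chosen with earlier results of these data known. The text names the 8 genes throughout, called genes of the lists, genes that check labels (Il9r, Arg1, Itgax), and the 3 genes most like each of the 8. A likeness gene needed a mean log2 CPM of at least 3. Library markers were named after their values were seen.

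Over 8111 genes, deviations of same-numbered knockout and WT libraries had correlations of 0.253 to 0.464 (IL9R chimeras) and 0.213 to 0.380 (ARG1 CD11c- IM), so these numbers were taken as pairs. In ARG1 CD11c+ IM they correlated at -0.0727 and -0.172 and were not. The main fit has a term for each group and uses no pairs. Only the replicate blocks use the numbers, and they do so for all tumor libraries. Same-numbered CD11c+ and CD11c- libraries had -0.131 and -0.155 in Arg1 CKO cells and 0.0450 to 0.403 in the other genotypes.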

Additional observations from a re-analysis of the deposited data

Results flagged for a closer look

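The ratios of naive knockout to naive WT cells were above 1 in the IL9R chimera and below 1 in the ARG1 chimera for 4 of the 8 genes. For Retnla the ratio was 2.88 for Il9r KO and 0.609 for Arg1 CKO, for Clec10a 3.22 and 0.818, for Cd209f 3.61 and 0.953, and for Mgl2 1.05 and 0.676. Each ratio rests on 1 library a group, so the difference between the chimera kinds was not tested.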

How the results depend on the processing

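Median-ratio size factors and no filter on low counts kept the direction and the call of each of the 8 genes. Of the counts of the 8 genes called, DESeq2 gave 4 for knockout CD11c+ IM over naive cells (2 by edgeR), 2 for CD11c+ over CD11c- IM in Arg1 CKO cells (0 by edgeR) and 2 for Il9r KO over WT (0 by edgeR). Fitting the contrasted groups alone gave 3 in Arg1 CKO cells and 1 in cells labelled Il9r KO. Over all genes, that setting called 872 in Arg1 CKO cells (388 in the main fit) and 343 in cells labelled Il9r KO (798). Leaving out both libraries labelled Il9r KO 3, chosen after seeing the data, gave 1 for CD11c+ over CD11c- IM in cells labelled Il9r KO. Over naive cells it gave 4 in CD11c+ and 7 in CD11c- knockout IM. Over all genes, it called 378 between the subsets in cells labelled Il9r KO (798 with all libraries). In CD11c+ knockout IM over naive cells it called 2227 of all genes (763 with all libraries). The number over all genes in CD11c- knockout IM is not given here. Leaving out both libraries turned Mgl2 to 1.93 and Egr2 to -0.000198 in cells labelled Il9r KO and Mgl2 to -0.13 for Il9r KO over WT. It turned Chil3 to -0.19 and Clec10a to 0.22 in knockout CD11c+ IM over naive cells. The cause was not tested.

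With a replicate block by chimera and number, 1 gene (Mgl2) was called between the subsets in Arg1 CKO cells, whose libraries do not pair by number, Mgl2 turned to 0.81 in cells labelled Il9r KO, and Retnla turned to 0.13 in Arg1 CKO cells. With a replicate block by chimera, subset and number, 1 gene (Chil3, 1.59) was called in CD11c+ IM for Arg1 CKO over WT, although those libraries do not pair by number, and Retnla (-0.0428) and Mgl2 (-0.0619) turned for Il9r KO over WT. The blocks changed no other call of the 8 genes. Over all genes, the first block called 830 between the subsets in Arg1 CKO cells (388 without a block). The second called 13 in CD11c+ IM for Arg1 CKO over WT (6 without a block).

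Leaving out 1 library at a time, the genes called ran from 2 to 5 between the subsets in WT cells and in cells labelled Il9r KO, from 0 to 3 in CD11c+ and from 0 to 5 in CD11c- knockout IM over naive cells. Over all genes, the number called between the subsets in cells labelled Il9r KO ran from 436 to 939 (798 with all libraries). The number over all genes also moved with the library left out in the other comparisons named. These ranges thus cannot be read as particular to the 8 genes. Log2 fold changes of the 8 genes that turned ran as follows. Between the subsets, Retnla ran from -0.39 to 0.28 in WT and from -0.79 to 0.13 in Arg1 CKO cells, and in cells labelled Il9r KO Mgl2 ran from -0.97 to 1.78 and Egr2 from -0.13 to 0.14. For Il9r KO over WT in both subsets, Chil3 ran from -0.18 to 1.39, Mgl2 from -0.20 to 1.56, Clec10a from -0.55 to 0.61 and Egr2 from -0.45 to 0.22, and in CD11c+ IM Chil3 ran from -0.0161 to 3.11. For Arg1 CKO over WT, Cd209f ran from -1.85 to 4.23. Over naive cells, Chil3 ran from -1.48 to 1.86 in WT CD11c- IM, in knockout CD11c+ IM Chil3 ran from -0.71 to 1.59 and Clec10a from -0.45 to 0.43, and in knockout CD11c- IM Cd209f ran from -2.97 to 0.0698, Cd209g from -3.60 to 0.20 and Egr2 from -1.44 to 0.0878.

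Over all genes, DESeq2 called 53 for Il9r KO over WT (7 by edgeR), 25 for Arg1 CKO over WT (5), 854 between the subsets in Arg1 CKO cells (388), 1251 in cells labelled Il9r KO (798) and 1781 in knockout CD11c+ IM over naive cells (763). Groups of 1 to 3 libraries, and 0 to 10 reads of the Cd209 genes in WT CD11c+ IM, limit the precision.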
